A study of Mus musculus with 9 samples.

Results

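The p53 pathway was followed here through 10 genes: Trp53 itself, its inhibitors Mdm2 and Mdm4, and the target genes Ccng1, Zmat3, Phlda3, Trp53inp1, Sesn1, Bax and Bbc3. They were chosen by name, with earlier results of these data known, and all 10 were found among the 18738 genes listed. All 10 also passed the filter for testing, a mean of at least 1 TPM (a level scaled to transcript length and to the library's total) over the libraries, as did 13655 genes in all. RNA-seq was available from 9 libraries of heart cardiomyocytes taken at P0, the day of birth, from C57BL/6J mice of WT (wild-type) genotype. The 3 groups shared strain, genotype, age, tissue and cell type, and differed in what the mothers were fed from fertilization until delivery: ND, the normal diet; sHFD, which was slightly high in fat; or HFD, the full high-fat diet. Each diet had 3 libraries. No source used here gives the diets' fat content, the number of litters or any pooling of hearts, so replicates may be technical and p-values measure only the spread between these libraries. The study's design text ties the libraries to a search for pathways behind defective proliferation of cardiomyocytes.

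The protein p53 is a transcription factor that is made continuously and degraded quickly. Mdm2 is a ubiquitin ligase that marks p53 for degradation, and Mdm4 is its partner, which binds p53 and holds back its activity. DNA damage and other stress free p53 from both, after which it binds response elements near its targets and raises their transcription. The targets arrest the cell cycle, repair DNA, change metabolism or start apoptosis, and Mdm2 is itself a target, which closes a feedback loop. Control of p53 acts largely on the protein, which RNA-seq does not measure. In the heart, loss of Mdm2 or Mdm4 is known to be harmful through unrestrained p53.

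The promoter stretches that most resemble a p53 response element are shown first, since such elements are what p53 binds. A p53 response element consists of a pair of half-sites of 10 bases each, separated by a spacer of up to 13 bases, and each half-site is its own reverse complement in pattern, so both strands are searched together. RefSeq promoter windows of GRCm38.p6, from 250 bases before to 50 bases after a transcript start, were found for 8 of the 10 members and for Cdkn1a, the best known target, which was added for reference. No entry was matched for Zmat3 or Trp53inp1. The best match to the pattern among the windows of each gene is given on the gene's strand, 5′ to 3′, with half-sites in capitals and the spacer in lower case.
Cdkn1a: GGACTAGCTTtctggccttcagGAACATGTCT
Ccng1: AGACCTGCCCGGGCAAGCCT
Bax: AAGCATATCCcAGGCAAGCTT
Sesn1: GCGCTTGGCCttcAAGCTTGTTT
Bbc3: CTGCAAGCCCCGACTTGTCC
Trp53: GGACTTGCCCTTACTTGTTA
Mdm4: AGGTATGCTGTGGCAAGCCT
Mdm2: GAACTTGCCTagCGACCATTGC
Phlda3: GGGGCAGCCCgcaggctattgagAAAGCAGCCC

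The match in Cdkn1a, at chr17:29090906-29090937 on the + strand, kept all 20 positions of the pattern, as did 0.0731% of 32851 windows of the same length. In the window of the other Cdkn1a start the best match kept 15. The matches in Ccng1, at chr11:40755462-40755481 on the − strand, and Bax, at chr7:45467090-45467110 on the − strand, kept 19 of 20, a fit that 1.09% of windows reached or bettered. The Sesn1 match lay before a second start at chr10:41887253-41887275 on the + strand and kept 18, reached by 10.1% of windows. Bbc3, Trp53 and Mdm4 kept 17, reached by 45.1%, and Mdm2 and Phlda3 kept 16, reached by 89.3%, so that matches like those of the last pair are found in most windows. These shares count single windows, whereas the best of 3 windows was taken for Bbc3 and of 2 for Cdkn1a, Sesn1 and Mdm4. For these 4 genes the shares therefore make a match look rarer than it is per gene. The known Mdm2 elements lie in its first intron, outside the window searched. A match is a description of letters and does not show binding. The surroundings of 2 of these matches, in genes whose values differed between diets below, are given as the 250 bases before the start concerned, with half-sites in capitals.
Cdkn1a, chr17:29090729-29090978, + strand: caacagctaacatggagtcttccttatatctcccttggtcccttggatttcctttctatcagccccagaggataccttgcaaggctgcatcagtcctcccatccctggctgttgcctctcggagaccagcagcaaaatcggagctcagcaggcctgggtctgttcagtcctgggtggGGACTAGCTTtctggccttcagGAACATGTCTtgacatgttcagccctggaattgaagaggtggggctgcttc
Sesn1, chr10:41887189-41887438, + strand: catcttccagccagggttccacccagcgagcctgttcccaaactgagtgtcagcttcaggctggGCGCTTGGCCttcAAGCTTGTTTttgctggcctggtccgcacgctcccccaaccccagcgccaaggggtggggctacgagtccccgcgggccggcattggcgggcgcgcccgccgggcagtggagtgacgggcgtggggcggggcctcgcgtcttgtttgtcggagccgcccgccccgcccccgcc

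Before the results, 1 library is described separately, though the main fit kept it and no library was tested as an outlier. ND replicate 1 lay within the range of the HFD libraries for 46.6% of all genes tested, against 26.3% for ND replicate 2 and 29.2% for ND replicate 3. Among the members it did so for 5 of 10 (Mdm2, Mdm4, Trp53inp1, Sesn1 and Bbc3), while ND replicate 2 did so for 0 and ND replicate 3 for 3 (Ccng1, Phlda3 and Bbc3). Its summed level of 15 immediate-early and heat-shock genes, which rise quickly when tissue is handled, was 11624 TPM, against 3382 and 6471 TPM in the other ND libraries. The same sum was 3337 to 3590 TPM in sHFD and 8754 to 13412 TPM in HFD. All 10 cardiomyocyte markers were present in every library. Their summed level was 25192 to 40850 TPM in ND, 39734 to 52342 TPM in sHFD and 29529 to 38436.5 TPM in HFD. Every sHFD library thus lay above every HFD library, and ND replicate 1 was the lowest of all libraries. Markers of fibroblasts, endothelium, mural cells, epicardium, immune cells and red cells were also above 0 in every library. Endothelial sums were 2983 to 4532 TPM in ND, 2950 to 3224 TPM in sHFD and 3341 to 3727 TPM in HFD, so that HFD lay above sHFD. Fibroblast sums overlapped between these diets. In such bulk samples, fewer cells of a type and less RNA per cell cannot be told apart.

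The level of Trp53 was lower after the high-fat diet than after both other diets. Its TPM was 43.7, 74.6 and 69.1 in ND, 74.1, 98.0 and 63.2 in sHFD, and 26.3, 27.7 and 25.5 in HFD. Every HFD library lay below every other library, and the HFD libraries differed little among themselves, while ND replicate 1 was the lowest of the remaining 6. Means ± SD (n = 3) were 62.4 ± 16.5 TPM in ND, 78.4 ± 17.8 TPM in sHFD and 26.5 ± 1.13 TPM in HFD, so that the HFD mean was 0.424 times that of ND and 0.338 times that of sHFD. On the log2(TPM + 1) scale, Trp53 fell by 1.17 in HFD vs ND (SE 0.21, limma adjusted p = 0.0105), and by 1.51 when HFD was set against sHFD (SE 0.21, limma adjusted p = 0.00109). The HFD vs ND call was kept in 7 of the 9 fits that each left out 1 library, and was lost without ND replicate 3 (adjusted p = 0.0672) and without HFD replicate 2 (adjusted p = 0.0642). Of the 9 fits, 3 left out an sHFD library, which kept the difference at -1.17 and altered only the spread and p-values. In every comparison the same holds for fits without a library of the diet not compared. Between sHFD and ND the log2 difference was 0.34 (limma adjusted p = 0.699) and the libraries overlapped. Trp53 lies at chr11:69580348-69591873 on the + strand. A processed pseudogene, Trp53-ps, lies on chromosome 17 and is not listed in the table, and how reads common to both were assigned is not given in the sources used here.

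**Figure D1:**
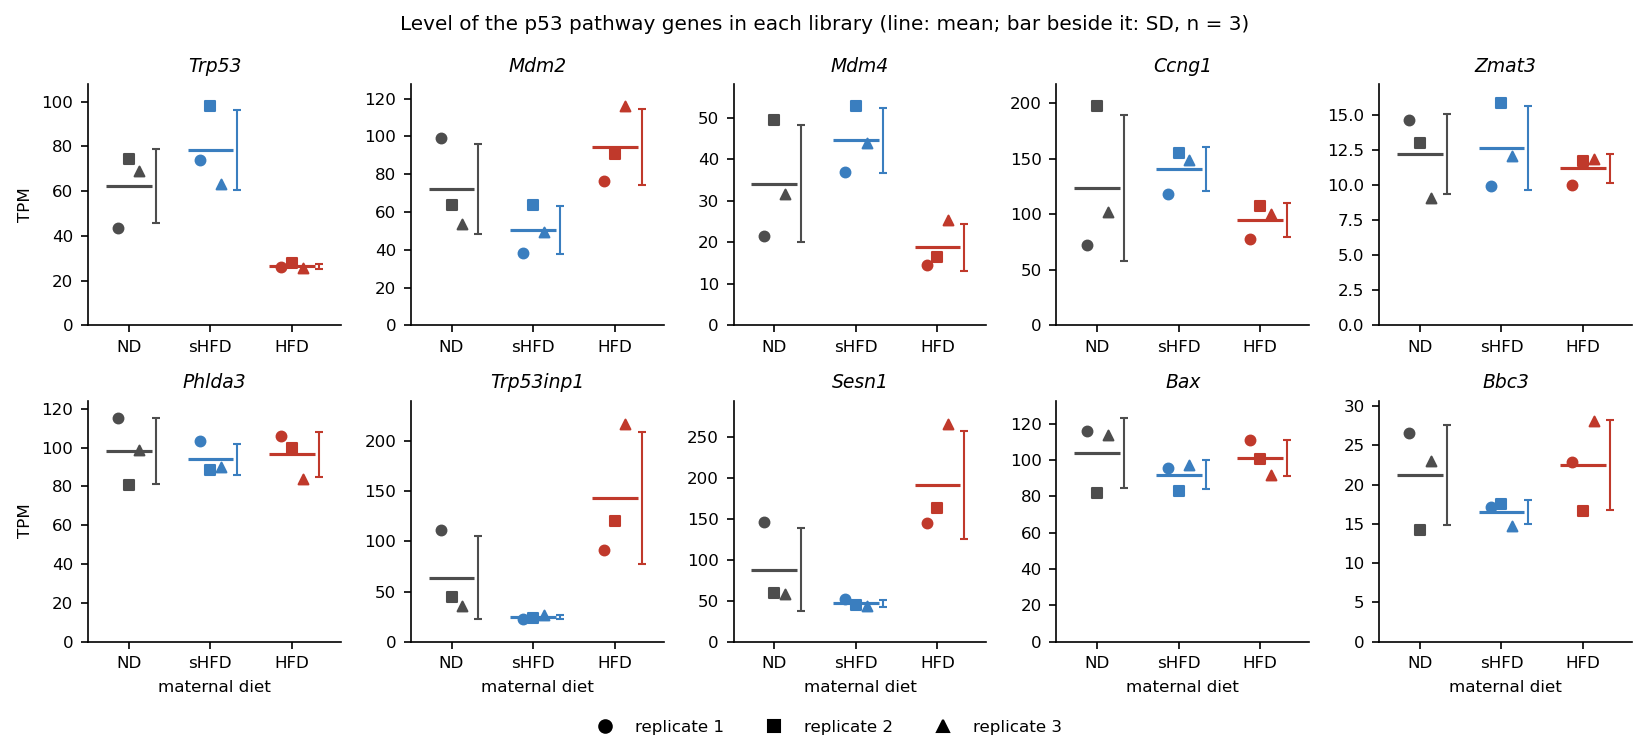
Level of each member in TPM (linear vertical axis from 0) in the 9 libraries by maternal diet; points are libraries with the marker shape giving the replicate number, the horizontal line is the mean and the bar the SD (n = 3). The HFD libraries lie lowest for Trp53, at 25.5 to 27.7 TPM, and highest as a group for Sesn1 and Trp53inp1, where ND replicate 1 lies among them.

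The call counts over the members set that gene in context. Between HFD and ND, 3 of 10 members passed the test, against 10.9% of all genes tested: Trp53inp1 and Sesn1 rose, where 1.28% of all genes did, and Trp53 fell, where 9.59% did. The count of 3 became 5 without ND replicate 1, 1 without ND replicate 2 or HFD replicate 1, and 0 without ND replicate 3 or HFD replicate 2. What share of all genes was called in each of those fits is not given here, so the changes in count cannot be set against all genes. In HFD vs sHFD, 5 of 10 passed, against 34.2% of all genes: Mdm2, Trp53inp1 and Sesn1 rose (10.3% of all genes) and Trp53 and Mdm4 fell (23.9%). In sHFD vs ND, 0 of 10 passed by limma, against 0.00732% of all genes, which is 1 gene. Between sHFD and ND, an unadjusted p under 0.05 was reached by 2 members, Trp53inp1 and Sesn1. How many of all genes reached that level is not given here, so this count cannot be set against them. The members' median log2 difference was -0.02 between HFD and ND, -0.11 between sHFD and ND and 0.08 between HFD and sHFD, beside -0.14, 0.00 and -0.16 for all genes. Median-ratio scaling moved the all-gene medians of the HFD comparisons to 0.01 and -0.01 and left the members' calls at 3 and 5. Comparisons that use HFD share its 3 libraries, so their values are given side by side and not as support for each other.

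**Figure D2:**
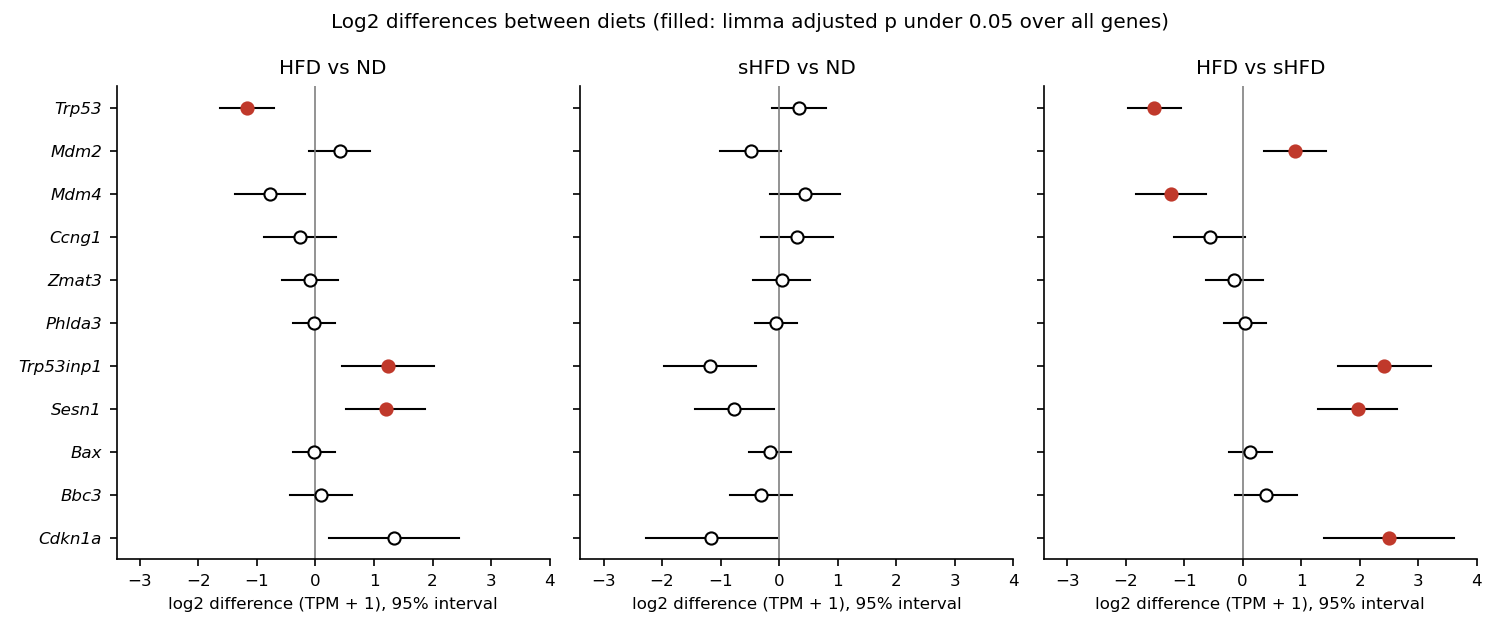
Log2 difference of each member and of Cdkn1a in the 3 comparisons, on the log2(TPM + 1) scale, with its 95% interval from limma; filled points have an adjusted p under 0.05 over all genes tested. Trp53, Sesn1 and Trp53inp1 are filled in HFD vs ND, none is filled in sHFD vs ND, and Mdm2, Mdm4 and Cdkn1a join them in HFD vs sHFD.

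Of the inhibitors of p53, Mdm4 was low and Mdm2 high after the high-fat diet, with a call only against the slight high-fat diet. Mdm2 had 99.3, 64.0 and 53.5 TPM in ND, 38.3, 63.5 and 49.7 TPM in sHFD, and 76.6, 90.8 and 116 TPM in HFD. The HFD libraries lay above all sHFD libraries, whereas ND replicate 1 lay between the second and the highest HFD library. Mdm2 rose by 0.90 on the log2 scale in HFD vs sHFD (SE 0.24, limma adjusted p = 0.0144), a ratio of means of 1.87. That call was lost without sHFD replicate 1 (adjusted p = 0.0659) and without HFD replicate 3 (adjusted p = 0.0546). Against ND the difference was 0.41 (95% interval -0.12 to 0.94, limma adjusted p = 0.277). It was 0.66 without ND replicate 1 (adjusted p = 0.0431), 0.22 without ND replicate 3 (adjusted p = 0.664) and 0.25 without HFD replicate 3 (adjusted p = 0.562).

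Mdm4 had 21.5, 49.5 and 31.6 TPM in ND, 37.0, 52.8 and 44.0 TPM in sHFD, and 14.6, 16.6 and 25.3 TPM in HFD. All HFD libraries lay below all sHFD libraries, and ND replicate 1 lay within the HFD range. Mdm4 fell by 1.22 in HFD vs sHFD (SE 0.28, limma adjusted p = 0.00631), and this call was kept whichever of the 9 libraries was left out. Against ND the difference was -0.78 (SE 0.28, limma adjusted p = 0.0818), which passed without ND replicate 1 (-1.07, adjusted p = 0.00941) and without HFD replicate 3 (-1.01, adjusted p = 0.0433). Without ND replicate 2 it was -0.48 (adjusted p = 0.267). Neither inhibitor passed in sHFD vs ND, with log2 differences of -0.49 for Mdm2 (limma adjusted p = 0.674) and 0.44 for Mdm4 (limma adjusted p = 0.700). These differences were -0.24 and 0.15 without ND replicate 1, and -0.55 and 0.74 without ND replicate 2. Without ND replicate 3 they were -0.68 and 0.42.

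Ratios within a library do not depend on scaling between libraries. The ratio of Mdm2 to Trp53 was 2.27, 0.858 and 0.774 in ND, 0.517, 0.648 and 0.786 in sHFD, and 2.91, 3.28 and 4.56 in HFD. All HFD libraries exceeded all others, with ND replicate 1 the nearest, and the means ± SD (n = 3) were 1.3 ± 0.842, 0.650 ± 0.134 and 3.58 ± 0.867. The two-sided exact permutation p was 0.1 for HFD against ND and against sHFD, the smallest that 3 against 3 libraries can give, and 0.2 for sHFD against ND. The ratio of Mdm2 to Mdm4 was 4.62, 1.29 and 1.69 in ND, 1.04, 1.20 and 1.13 in sHFD, and 5.23, 5.47 and 4.59 in HFD. Here ND replicate 1 lay inside the HFD range, and the exact permutation p was 0.2 for HFD against ND and 0.1 for both comparisons with sHFD. By contrast the ratio of Mdm4 to Trp53 was 0.491, 0.664 and 0.458 in ND, 0.499, 0.539 and 0.696 in sHFD, and 0.557, 0.598 and 0.994 in HFD. These ranges overlapped, with an exact permutation p of 0.3 for HFD against ND and 0.5 for both other comparisons. Adjustment over these 9 tests cannot bring any of them under 0.1.

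**Figure D3:**
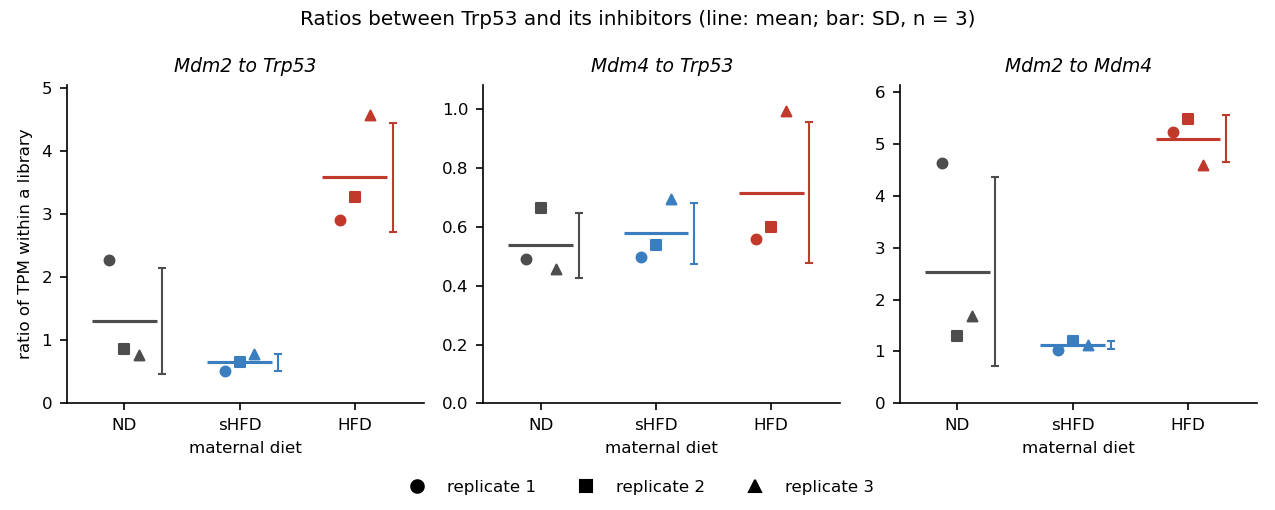
Ratios of TPM within a library (linear vertical axes from 0) between Trp53 and its inhibitors by maternal diet; points are libraries, lines means and bars SD (n = 3). Mdm2 to Trp53 is 2.91 to 4.56 in HFD and at most 2.27 elsewhere, while the ranges of Mdm4 to Trp53 overlap.

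Among the 7 member targets, Sesn1 and Trp53inp1 had the largest log2 differences in each of the 3 comparisons. Sesn1 encodes sestrin 1, which restrains mTORC1 signalling and oxidative damage. Its level was 146, 59.4 and 57.5 TPM in ND, 51.5, 45.1 and 43.1 TPM in sHFD, and 145, 163 and 266 TPM in HFD. HFD and sHFD did not overlap, and ND replicate 1 sat at the lower edge of HFD while the other ND libraries lay just above sHFD. Means ± SD (n = 3) were 87.8 ± 50.8, 46.6 ± 4.40 and 191 ± 65.5 TPM, the HFD mean being 2.18 times that of ND and 4.10 times that of sHFD. Sesn1 rose by 1.20 on the log2 scale in HFD vs ND (SE 0.31, limma adjusted p = 0.0304), and by 1.97 against sHFD (SE 0.31, limma adjusted p = 0.00153). The HFD vs ND call was kept in 4 of 9 fits with a library left out. It was lost without ND replicate 2, ND replicate 3 or any of the HFD libraries, with adjusted p up to 0.138, and without ND replicate 1 the difference was 1.64 (adjusted p = 0.000767). The HFD vs sHFD call was kept in all 9.

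Trp53inp1 encodes a stress-induced protein that aids the phosphorylation of p53 and takes part in autophagy. It had 111, 44.8 and 35.5 TPM in ND, 22.4, 23.8 and 26.4 TPM in sHFD, and 91.9, 121 and 217 TPM in HFD. The order of the libraries was that of Sesn1 at the level of groups: sHFD lowest and tightest, ND replicates 2 and 3 above it, and ND replicate 1 among HFD. Means ± SD (n = 3) were 63.9 ± 41.4, 24.2 ± 2.03 and 143 ± 65.7 TPM, with HFD 2.24 times ND and 5.92 times sHFD. Trp53inp1 rose by 2.42 in HFD vs sHFD (SE 0.37, limma adjusted p = 0.00127), whichever of the 9 libraries was left out. Its rise of 1.24 in HFD vs ND (SE 0.37, limma adjusted p = 0.0465) was close to the threshold. It was kept in 1 of those 9, without ND replicate 1 (1.72, adjusted p = 0.00147), while its size ranged from 0.89 to 1.72.

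Both genes were also lower in every sHFD library than in every ND library. The log2 differences in sHFD vs ND were -1.19 for Trp53inp1 (95% interval -1.97 to -0.40, limma adjusted p = 0.670) and -0.76 for Sesn1 (95% interval -1.44 to -0.09, limma adjusted p = 0.672), neither past the threshold. Without ND replicate 1 they were smaller, -0.70 and -0.33. They were larger without ND replicate 2, at -1.35 and -0.97, and without ND replicate 3, at -1.51 and -0.99. Trp53inp1 and Sesn1 were 2 of 10 members whose libraries did not overlap in that comparison, both lower. Of all genes, 9.4% had libraries without overlap there, 4.5% higher and 4.9% lower.

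Cdkn1a, which encodes the cyclin-dependent kinase inhibitor p21 and has the fullest match above, had 454, 54.6 and 142 TPM in ND, 71.1, 76.5 and 57.5 TPM in sHFD, and 351, 321 and 518 TPM in HFD. The ND libraries spanned nearly the whole range, from below sHFD to among HFD. It rose by 2.50 in HFD vs sHFD (SE 0.52, limma adjusted p = 0.00407), a ratio of means of 5.80. Against ND the HFD difference was 1.34 (SE 0.52, limma adjusted p = 0.103). It was 2.12 without ND replicate 1 (adjusted p = 0.00113) and 0.61 without ND replicate 2 (adjusted p = 0.329). In sHFD vs ND it was -1.16 (limma adjusted p = 0.672). This became -1.89 without ND replicate 2 (adjusted p = 0.0191) and -0.37 without ND replicate 1 (adjusted p = 1.000).

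Immediate-early and heat-shock genes moved alongside these targets. Of the 15 on that list, 15 rose in HFD vs sHFD and 0 passed in HFD vs ND by limma. In HFD vs ND 7 had an unadjusted p under 0.05, a level for which the share of all genes is not given here. Of the 14 immune markers, 12 fell in HFD vs ND and 7 against sHFD, and their summed level was 569 to 821 TPM in ND, 456 to 575 TPM in sHFD and 325 to 383 TPM in HFD. Red cell markers fell in 1 of 7 and 6 of 7 cases in the same comparisons, with sums of 8047 to 18762, 9309 to 12970 and 4252 to 7717 TPM. Mural markers fell in 4 of 7 and 5 of 7 cases, with sums of 1202 to 1394, 1517 to 2310 and 1255 to 1534 TPM. Of the 10 markers of cycling cells, 2 rose in HFD vs ND (Ccnb1 and Aurka), while in HFD vs sHFD 4 rose (Mki67, Ccnb1, Cdk1 and Aurka) and 3 fell (Mcm2, Mcm3 and Mcm5). Their sums overlapped, at 390 to 544, 412 to 624 and 398 to 530 TPM. Of 6 epicardial markers, 1 and 2 rose (Upk1b, then also Msln), with sums of 263 to 324, 224 to 388 and 431 to 468 TPM. Of all genes, 10.9% were called against ND (1.28% higher, 9.59% lower) and 34.2% against sHFD (10.3% higher, 23.9% lower). The part of these genes or cells in the differences of Trp53, Mdm2, Mdm4, Sesn1, Trp53inp1 and Cdkn1a was not tested. Nor was that of the cardiomyocyte and endothelial content given further above.

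**Figure D4:**
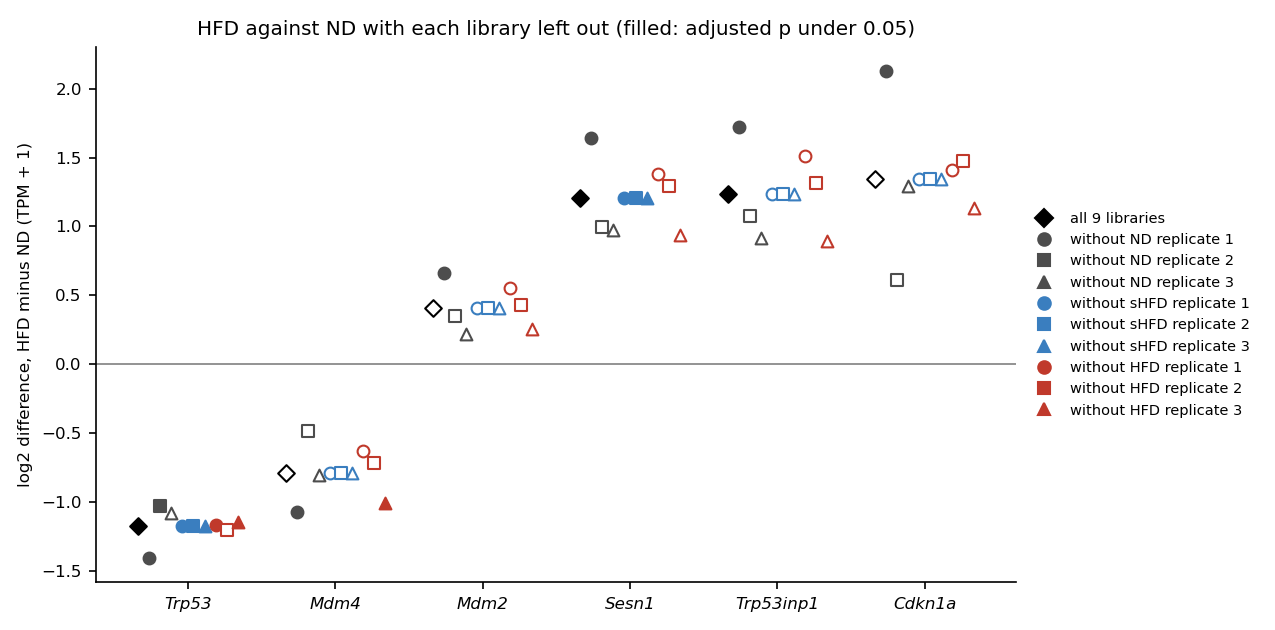
Log2 difference in HFD vs ND, on the log2(TPM + 1) scale, of 5 members and Cdkn1a with all 9 libraries (diamonds) and with each library left out in turn; filled points have a limma adjusted p under 0.05. Trp53 ranges from -1.40 to -1.03 and is filled in 7 of 9, whereas Trp53inp1 is filled in 1 of 9, without ND replicate 1. Fits without an sHFD library repeat the difference of all 9 libraries.

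The remaining 5 targets passed the test in no comparison. Phlda3, whose product competes with Akt for membrane lipids, had 115, 80.9 and 98.9 TPM in ND, 103, 88.6 and 90.0 TPM in sHFD, and 106, 99.7 and 83.7 TPM in HFD. Bax, whose product opens pores in the outer mitochondrial membrane, had 116, 81.6 and 114 TPM in ND, 95.4, 83.1 and 97.5 TPM in sHFD, and 111, 101 and 91.5 TPM in HFD. For both, the libraries of the 3 diets overlapped, and the highest library was 1.42 times the lowest. The log2 difference in HFD vs ND was -0.02 for Phlda3 (95% interval -0.38 to 0.34) and -0.03 for Bax (95% interval -0.39 to 0.34), and both signs turned under median-ratio scaling, to 0.14 and 0.13. In HFD vs sHFD these were 0.04 (95% interval -0.32 to 0.39) and 0.13 (95% interval -0.23 to 0.50). Bax shares 192 exon bases with Gm45808, a gene on the same strand that the table does not list, so its value is uncertain to that extent. Cdkn1a shares 273 exon bases with AC167363.2, which lies on the opposite strand and is also not listed, so the same may hold for Cdkn1a.

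Bbc3 encodes PUMA, a BH3-only protein that frees Bax from its inhibitors. It had 26.6, 14.2 and 23.1 TPM in ND, 17.2, 17.6 and 14.7 TPM in sHFD, and 22.9, 16.7 and 28.1 TPM in HFD. The groups overlapped, and the log2 difference was 0.10 in HFD vs ND (95% interval -0.43 to 0.62, limma adjusted p = 0.829) and 0.40 in HFD vs sHFD (95% interval -0.12 to 0.93, limma adjusted p = 0.214). Zmat3, a zinc finger protein that binds RNA, was the least abundant member in each diet on average, with 9.11 to 14.7 TPM in ND, 9.96 to 15.9 TPM in sHFD and 10.04 to 11.87 TPM in HFD. Its log2 differences were -0.10 in HFD vs ND (95% interval -0.58 to 0.38) and -0.14 in HFD vs sHFD (95% interval -0.62 to 0.34).

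Ccng1 encodes cyclin G1, which directs a phosphatase to Mdm2. It had 72.3, 198 and 102 TPM in ND, 119, 155 and 149 TPM in sHFD, and 77.8, 107 and 101 TPM in HFD. ND replicates 1 and 2 were the lowest and the highest of all 9 libraries, and every HFD library lay below every sHFD library. The log2 difference was -0.57 in HFD vs sHFD (95% interval -1.18 to 0.05, limma adjusted p = 0.137) and -0.26 in HFD vs ND (limma adjusted p = 0.567), neither past the threshold. The HFD vs sHFD difference passed without ND replicate 2 (adjusted p = 0.0266) and when only the 6 libraries compared were fitted (adjusted p = 0.0175). Both fits kept the difference at -0.57 and altered only the spread and p-values. With Ccng1, 6 of 10 members had libraries that did not overlap in HFD vs sHFD, beside 51.3% of all genes. In HFD vs ND, only Trp53 of the 10 did, beside 27.9% of all genes.

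TPM is scaled by transcript length, so levels of different members can be ordered. In ND the mean TPM ran from Ccng1 down through Bax, Phlda3, Sesn1, Mdm2, Trp53inp1, Trp53, Mdm4 and Bbc3 to Zmat3, and each gene overlapped with its neighbour in that order. In sHFD the order was Ccng1, Phlda3, Bax, Trp53, Mdm2, Sesn1, Mdm4, Trp53inp1, Bbc3 and Zmat3. There Ccng1 stood clear of Phlda3, and Trp53inp1 of both Mdm4 above and Bbc3 below, without overlap of the libraries. In HFD the order was Sesn1, Trp53inp1, Bax, Phlda3, Ccng1, Mdm2, Trp53, Bbc3, Mdm4 and Zmat3, with gaps between Mdm2 and Trp53 and between Mdm4 and Zmat3. The highest library exceeded the lowest 9.70 times for Trp53inp1, 6.18 times for Sesn1, 3.84 times for Trp53, 3.60 times for Mdm4 and 3.03 times for Mdm2. It did so 2.74 times for Ccng1, 1.98 times for Bbc3 and 1.74 times for Zmat3.

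The genes most like Trp53 over the 9 libraries, among 10940 ranked by Pearson correlation of log2(TPM + 1), were Pola2 (0.998), Gypc, Hic1 and Evi5l (0.993 each) and Smarcb1 (0.992). Pola2, a subunit of DNA polymerase alpha, had 22.4, 35.3 and 30.8 TPM in ND, 32.8, 42.6 and 30.0 TPM in sHFD, and 13.8, 14.7 and 14.1 TPM in HFD. The most opposite were H1f2 (-0.976), Cdkn2d and Myh7 (-0.973 each), Frat2 (-0.972) and Pla2g12a (-0.969). Myh7, the slow myosin heavy chain, had 507, 193 and 213 TPM in ND, 258, 118 and 164 TPM in sHFD, and 1214, 1183 and 948 TPM in HFD. Of the members, Mdm4 correlated with Trp53 at 0.89 and Ccng1 at 0.66, Zmat3 at 0.22, Phlda3 at -0.25, Bax at -0.41, Bbc3 at -0.53, Mdm2 at -0.75, Trp53inp1 at -0.90 and Sesn1 at -0.93. These values describe points that fall into diet groups and share libraries, and carry no test.

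The wider set of p53 targets moved in both directions. Of 44 listed, 43 were tested, Gls2 being under 1 TPM. Between HFD and ND, 1 rose (Gtse1) and 5 fell (Ak1, Fdxr, Pml, Steap3 and Pltp), and in HFD vs sHFD 12 rose and 9 fell. The share called was 13.95% and 48.8%, against 10.9% and 34.2% of all genes. By direction, 1.28% of all genes rose and 9.59% fell against ND, and 10.3% rose and 23.9% fell against sHFD. These shares by direction also apply to the lists below. The list median was 0.09 against ND and 0.05 against sHFD. Pltp, which transfers phospholipids between lipoproteins, fell by 1.10 in HFD vs ND (SE 0.25, limma adjusted p = 0.0191), and by 0.82 against sHFD (limma adjusted p = 0.0226). Steap3, an iron reductase of endosomes, fell by 1.13 (limma adjusted p = 0.0196) and by 1.41 (limma adjusted p = 0.00241), from 18.4 TPM in ND and 22.3 TPM in sHFD to 7.78 TPM in HFD on average. Ak1, which interconverts adenine nucleotides in muscle, fell by 0.89 (limma adjusted p = 0.0363) and by 1.54 (limma adjusted p = 0.00147), from 179 and 265 TPM to 90.2 TPM. With a library left out, the HFD vs ND call was kept in 6 of 9 fits for Pltp, 5 for Steap3 and 1 for Ak1.

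Those that rose in HFD vs sHFD were Cdkn1a, Plk2, Btg2, Fas, Tnfrsf10b, Pmaip1, Ddit4, Ppm1d, Psrc1, Gtse1, Cgrrf1 and Slc19a2. They include the death receptor genes Fas (1.5, limma adjusted p = 0.00437) and Tnfrsf10b, the mTORC1 inhibitor gene Ddit4 (2.06, limma adjusted p = 0.00341) and the antiproliferative gene Btg2 (1.42, limma adjusted p = 0.00625), named after their values were seen. The 9 that fell were Ak1, Fdxr, Pml, Steap3, Pltp, Rrm2b, Polk, Tigar and Pidd1. Among them Rrm2b, a ribonucleotide reductase subunit, fell by 1.27 (limma adjusted p = 0.0148) and Tigar, which lowers glycolytic flux, by 1.19 (limma adjusted p = 0.00525), also named after their values were seen. The HFD vs ND count of 6 became 16 without ND replicate 1, with 8 higher and 8 lower. It was 4 without sHFD replicate 2, 2 without sHFD replicate 1 or 3, 1 without ND replicate 2, and 0 without ND replicate 3, HFD replicate 1 or HFD replicate 2. The HFD vs sHFD count ranged from 14 to 25, at 14 without sHFD replicate 1 or HFD replicate 2. In sHFD vs ND, 0 of the 43 passed by limma and 7 had an unadjusted p under 0.05. Shares of all genes are not given for that last count or for the fits with a library left out.

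**Figure D5:**
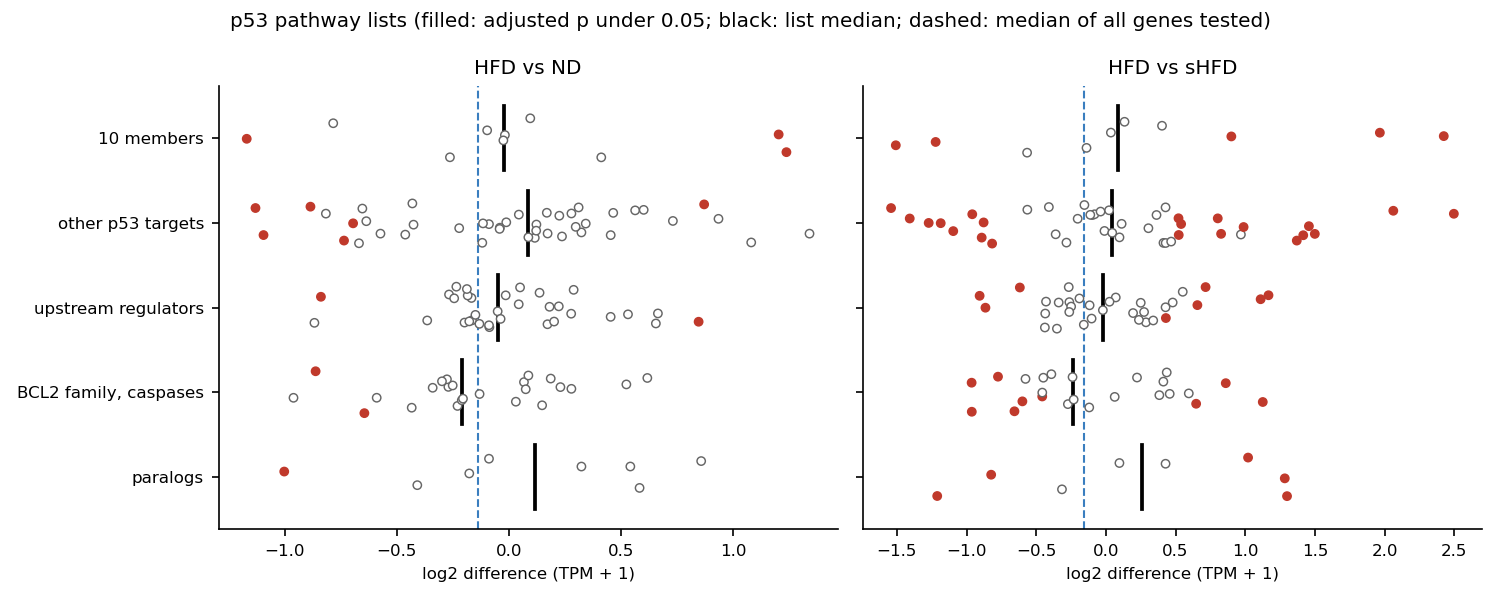
Log2 difference of each tested gene, on the log2(TPM + 1) scale, in the members and 4 further lists, for HFD vs ND (left) and HFD vs sHFD (right); filled points have a limma adjusted p under 0.05, black bars are list medians and the dashed line is the median of all genes tested. Each list spreads to both sides of 0; the other p53 targets have 1 filled point above 0 and 5 below it in HFD vs ND, and 12 and 9 in HFD vs sHFD.

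Kinases, acetylases and other proteins that act on p53 were listed as 35 genes, of which 34 were tested, Cdkn2a being under 1 TPM. Between HFD and ND 1 rose and 1 fell, and in HFD vs sHFD 5 rose (Hipk2, Rchy1, Ep300, Crebbp and Sirt1) and 3 fell (Prkdc, Smyd2 and Cul9), with list medians of -0.04 and -0.03. The share called was 5.88% and 23.5%, against 10.9% and 34.2% of all genes. Crebbp, an acetyltransferase and coactivator of p53, rose by 0.85 in HFD vs ND (limma adjusted p = 0.0478) and by 1.17 in HFD vs sHFD (limma adjusted p = 0.00488). Cul9, a cytoplasmic anchor of p53, fell by 0.84 (limma adjusted p = 0.0446) and by 0.91 (limma adjusted p = 0.0139). With a library left out, the HFD vs ND call was kept in 1 of 9 fits for Crebbp and 2 for Cul9. Hipk2, a kinase of p53, differed by 0.66 in HFD vs ND (limma adjusted p = 0.0679) and rose by 0.72 in HFD vs sHFD (limma adjusted p = 0.0239). The HFD vs ND count of 2 became 7 without ND replicate 1, stayed at 2 without HFD replicate 3, and was 0 without each of the other 7 libraries. The HFD vs sHFD count of 8 was 4 without sHFD replicate 1, 2 or 3 or HFD replicate 1 or 3, and 2 without HFD replicate 2. In sHFD vs ND 0 passed by limma, and 1 had an unadjusted p under 0.05. Neither for unadjusted p nor for the fits with a library left out is the share of all genes given.

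Of the BCL2 family, caspases and mitochondrial death factors, 24 of 26 were tested, Hrk and Bcl2a1a being under 1 TPM. In HFD vs ND 0 rose and 2 fell, and in HFD vs sHFD 3 rose (Bcl2l1, Mcl1 and Bcl2l11) and 6 fell (Bcl2l2, Bad, Casp8, Htra2, Endog and Aifm1), with medians of -0.21 and -0.24. The share called was 8.33% and 37.5%, near the 10.9% and 34.2% of all genes. Bcl2l1 and Mcl1 encode survival proteins and Bcl2l11 the death-promoting Bim, so the risers held both kinds. Bad, which promotes death, fell by 0.86 in HFD vs ND (limma adjusted p = 0.0129) and by 0.96 in HFD vs sHFD (limma adjusted p = 0.0021), from 52.1 and 56.4 TPM to 28.1 TPM. Endog, a mitochondrial nuclease, fell by 0.65 (limma adjusted p = 0.0446) and by 0.96 (limma adjusted p = 0.00313). With a library left out, the HFD vs ND call was kept in 6 of 9 fits for Bad and 1 for Endog. Casp8, the caspase of death receptors, differed by -0.59 in HFD vs ND (limma adjusted p = 0.051) and fell by 0.66 in HFD vs sHFD (limma adjusted p = 0.0146). The HFD vs ND count of 2 became 8 without ND replicate 1. It was 1 without ND replicate 2 or any sHFD library, and 0 without ND replicate 3, HFD replicate 1 or HFD replicate 2. The HFD vs sHFD count ranged from 5, without sHFD replicate 2, to 13. In sHFD vs ND 0 passed by limma and 5 had an unadjusted p under 0.05. Again no share of all genes is given for that last count or for the fits with a library left out.

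Close relatives of the members were followed through 12 genes, of which 8 were tested. Trp63 and Trp73, the relatives of Trp53, were under 1 TPM, as were Phlda2 and Zmat4. In HFD vs ND 1 fell (Zmat1), and in HFD vs sHFD 3 rose (Ccng2, Sesn3 and Phlda1) and 2 fell (Trp53inp2 and Zmat1), with medians of 0.12 and 0.26. The share called was 12.5% and 62.5% of these 8, against 10.9% and 34.2% of all genes. Zmat1 fell by 1.00 in HFD vs ND (limma adjusted p = 0.0449) and by 1.21 in HFD vs sHFD (limma adjusted p = 0.00837). Its HFD vs ND call was kept in 2 of 9 fits with a library left out. Ccng2, a relative of Ccng1, differed by 0.54 in HFD vs ND (limma adjusted p = 0.0699) and rose by 1.02 in HFD vs sHFD (limma adjusted p = 0.00219), whereas Ccng1 itself passed in neither. Phlda1 differed by 0.86 (limma adjusted p = 0.0781) and rose by 1.3 (limma adjusted p = 0.00668). The difference between such relatives was not tested. The HFD vs ND count became 4 without ND replicate 1, stayed at 1 without HFD replicate 3 and was 0 without each of the other 7 libraries, while the HFD vs sHFD count was 5 in all 9 fits. In sHFD vs ND 0 passed by limma and 2 had an unadjusted p under 0.05. Here too the share of all genes is not given for unadjusted p or for the fits with a library left out.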

How the data were processed

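The authors deposited 1 table of TPM for 18738 genes of the mRNA type, none mitochondrially encoded. RSEM 1.3.1 and the build GRCm38 are named, without a role, per the submitters' processing notes; which aligner and annotation served is not given in the sources used here. TPM keeps no read depth, so depth and its precision are unknown. Columns named CON, MID and HIGH were read as ND, sHFD and HFD, with their replicate numbers.

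Values were taken as log2(TPM + 1), which understates changes of low genes, and the 13655 genes averaging 1 TPM or more were tested in limma 3.58.1 (R 4.3.3). The model held 3 diets over 9 libraries, leaving 6 residual degrees of freedom, with a variance trend on intensity, and two-sided p-values were Benjamini-Hochberg adjusted over all genes at 0.05. It was tested on simulated data. Alternatives were other scalings, pseudocounts, filters and fits, and each library left out. Positions and promoters are from RefSeq (GRCm38.p6), matched by symbol or Entrez identifier.

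The members and lists were chosen with earlier results of these data known. Named were the 10 members, Cdkn1a, from every list the 3 genes of lowest p between HFD and ND, and the 5 genes most and least like Trp53 among those of at least 5 TPM; other names are marked or complete a count.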

Additional observations from a re-analysis of the deposited data

How the results depend on the processing

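The count of members passing in HFD vs ND, 3 in the main analysis, was 1 without a filter on low values and 1 when only the 6 libraries compared were fitted, and ranged from 0 to 5 with a library left out. The cause was not tested, and the share of all genes called in these fits is not given here. In HFD vs sHFD it was 5 and ranged from 4 to 6, and in sHFD vs ND it was 0 throughout. No label says whether replicate numbers pair the libraries. Same-numbered deviations from the diet means correlated at -0.287 to 0.413, and such mixed values cannot decide it. With the replicate number as a block the HFD vs ND count was 3, with Mdm4 gained (adjusted p = 0.0459) and Trp53inp1 lost (adjusted p = 0.0597). Trp53inp1 was also lost in HFD vs ND under quantile normalization (0.0511), without the filter (0.102), without the trend (0.0576) and in 6 libraries (0.10), and Sesn1 without the filter (0.0721) and in 6 libraries (0.0752). Signs turned in 5 members, none of which passed a comparison in the main analysis. For Zmat3 the log2 difference was 0.0498 with median-ratio scaling and 0.17 with quantile normalization in HFD vs ND, and 0.0137 and 0.16 in HFD vs sHFD. For Phlda3 and Bax in HFD vs ND it was 0.14 and 0.13 with median-ratio scaling. With a library left out, Ccng1 ranged from -0.59 to 0.13 in HFD vs ND and -0.0201 to 0.70 in sHFD vs ND. Zmat3 ranged from -0.28 to 0.0341 in HFD vs ND, -0.14 to 0.19 in sHFD vs ND and -0.29 to 0.0259 in HFD vs sHFD. Phlda3 ranged from -0.15 to 0.10, -0.19 to 0.0668 and -0.0361 to 0.13 in the same order. Bax ranged from -0.19 to 0.0644 and Bbc3 from -0.16 to 0.29 in HFD vs ND. Leaving a library out of the further lists was chosen after seeing the data. Depth is unknown, so its limits could not be given.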
